A study of Mus musculus with 8 samples.

Results

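Gamma-delta-like (γδ-like) cells were examined among stimulated SDHA-KO splenic T cells of the mouse. A cell was counted as γδ-like when the study's cell table placed it in the CD8 class and it held at least 1 unique molecular identifier (UMI, 1 captured mRNA molecule) of Trdc and 0 UMIs of Cd8a and Cd8b1. This rule found 319 cells, 188 in replicate 1 and 131 in replicate 2, among 907 stimulated SDHA-KO cells of the CD8 class and 12846 cells of the whole data set. The comparison cells, called strict CD8, were CD8-class cells of the same libraries with a Cd8a or Cd8b1 UMI and no Cd4 or Trdc UMI, and numbered 169 and 147. The study compared T cells of WT mice with T cells of SDHA-KO mice (Sdha fl/fl CD4-Cre), which lack the catalytic subunit of mitochondrial complex II where Cre was active. Magnetically purified pan T cells of the spleen were kept without antibodies (Unstimulated) or stimulated for 48 h with soluble anti-CD3 at 5 μg/mL and anti-CD28 at 2.5 μg/mL (Stimulated), and dead cells were removed in all groups. Each of the 4 groups had 2 libraries of 10x Genomics 3′ counts. The sources used here do not state which mice the replicates came from, so p values describe only the spread between these libraries.

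γδ T cells carry a receptor of a γ and a δ chain together with CD3, arise in the thymus beside αβ T cells, and include cells with stored granzymes, type 1 cytokines, or IL-17. The δ constant gene, Trdc, lies inside the α chain locus. Cd4 regulatory sequences drive Cre from about the double-positive stage of αβ development, a stage that γδ cells do not pass through, and a 3′ count cannot tell a recombined Sdha transcript from an intact one.

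The γδ-like cells gave 7049079 and 4311824 UMIs in all, against 5966195 and 4921730 in the strict CD8 cells of the same libraries. The stimulated WT libraries held 17 and 17 γδ-like cells with 583183 and 508194 UMIs, and the unstimulated SDHA-KO libraries held 28 and 30. The unstimulated WT libraries held 6 and 6, too few for a fit, since sums of fewer than 10 cells were left out. Between the 2 sums of a group, counts varied beyond sampling noise (chi-square over its degrees of freedom, 1.53 to 8.8). Among all cells, 23 barcodes occurred in more than 1 library, and 0 of the 319 γδ-like cells carried such a barcode.

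The rule itself set the level of Trdc, Cd8a, and Cd8b1, so these genes are described and not tested. The cells held between 1 and 70 Trdc UMIs, with a median of 6 and quartiles of 3 and 13, and 36 of them held exactly 1. These 36 cells, just inside the rule, had a UMI of a γ constant gene in 75% of cases and Sdha at 76.4 CPM (UMIs of the gene scaled to a fixed library total). The 46 cells just outside it, with neither Trdc nor Cd8 UMIs, had a γ constant UMI in 52.2% of cases and Sdha at 71.8 CPM. Another 40 cells had Trdc UMIs with exactly 1 Cd8 UMI, and their γ constant share was 87.5% with Sdha at 83.7 CPM. Sdha was thus close among these groups, and some cells with a γ chain lay outside the rule. Their median mitochondrial shares were 21.5%, 13.2%, and 13.3%, against 2.18% in strict CD8 cells. Their median depths were 9160, 11400, and 17900 UMIs, against 31900. Sdha levels depended on the mitochondrial share, as given below, and its part here was not tested. A Cd4 UMI was found in 30 of the γδ-like cells.

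The second chain of the receptor was not used by the rule. A UMI of Tcrg-C1, Tcrg-C2, or Tcrg-C4, γ constant genes, was found in 89.9% (exact 95% interval 84.7 to 93.8) and 88.5% of γδ-like cells. The share was 13.0% and 12.9% in strict CD8 cells and 7.48% and 6.0% in CD4-class cells of these libraries. The CD4 class was no clean background, since 115 of its 1137 and 111 of its 1284 cells held a Trdc UMI. Median depth was 26686.5 and 18995 UMIs per γδ-like cell and 33462 and 30688 per strict CD8 cell, so the higher share lay in the shallower cells. Intervals of this kind cover counting error only.

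Summed UMIs gave the same picture on a scale of CPM normalised by TMM. Tcrg-C2 (chr13:19304649-19307551, minus strand, GENCODE M21 annotation of GRCm38) was at 88.5 and 95.6 CPM in γδ-like cells and at 4.49 and 3.1 in strict CD8 cells. Tcrg-C4 was at 103 and 101 CPM against 6.10 and 2.52. Trgv2, a γ variable gene, was at 58.6 and 49.2 CPM against 1.60 and 2.32. In each case the γδ-like libraries lay above both strict CD8 libraries. The list held 17 receptor genes, of which 10 were in the file under those symbols and 5 had enough UMIs for the fit, some only through the γδ-like sums, so that these values are a description and no p is given. In this comparison 6.75% of all 11943 genes tested were higher and 8.71% were lower in γδ-like cells.

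The α chain went the other way, while the β constant genes stayed abundant. Trac (chr14:54220521-54224206, plus strand), the α constant gene, was at 70.1 and 66.5 CPM in γδ-like cells and at 251 and 290 in strict CD8 cells, and fell by 2.03 on the log2 scale (SE 0.115, adjusted p 6.49e-05). Trac was not absent, since 54.8% and 57.3% of γδ-like cells held a Trac UMI, against 94.7% and 96.6% of strict CD8 cells. Trbc1 was at 462 and 578 CPM against 609 and 564, a difference that did not pass the test (log2 fold change -0.24, adjusted p 0.249). Trbc2 was at 682 and 654 CPM against 864 and 1040 (log2 fold change -0.56, adjusted p 0.0112), and this call was lost without either SDHA-KO library. Cd3e, a signalling chain of the receptor complex, was found in 85.1% and 92.4% of γδ-like cells and lay at 112 and 135 CPM against 191 and 195 (adjusted p 0.00363). That call was lost without replicate 1. Fcer1g, an adaptor that can replace the CD3 zeta chain, was at 23.0 and 26.0 CPM against 0.481 and 3.1, from 287 UMIs against 19. The strict CD8 sums had too few Fcer1g UMIs for the fit on their own, so it is described without a test.

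The variable genes showed more than 1 kind of γ chain. Trgv2 UMIs were found in 73.9% and 64.9% of γδ-like cells. Tcrg-V1 was at 8.92 and 13.8 CPM against 0.321 and 0 in strict CD8 cells, and Tcrg-V4 at 1.92 and 2.19 against 0 and 0, at least 7.67-fold higher with 3 UMIs as the most that 0 allows over both libraries. Trdv1 was at 2.88 and 3.28 CPM against 0.160 and 0.194. Tcrg-V6 was at 0 and 0 CPM. Tcrg-V4 and Trdv1 rest on 24 and 36 UMIs in γδ-like cells against 0 and 2 in strict CD8 cells. These variable genes are therefore described without a test.

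Of the genes that had been taken as markers of these cells, Tcrg-C1 and Gzmc were high and Sox13 was not. Because they were picked from earlier results of these data, they are given without a test. Tcrg-C1 was at 31.3 and 30.6 CPM against 0.963 and 1.36, and 46.3% and 50.4% of γδ-like cells held a UMI. Gzmc, a granzyme of strongly stimulated killer cells, was at 353 and 314 CPM against 17 and 1.16. Sox13, a transcription factor of early γδ and IL-17-producing cells, was at 0.823 and 2.19 CPM against 1.93 and 0.194, with a UMI in 2.66% and 3.82% of γδ-like cells and in 2.37% and 0.680% of strict CD8 cells, so the groups overlapped. Beyond Trdc, on which the cells were chosen, the name γδ-like therefore rests on the γ chain genes, and not on Sox13.

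Markers of other lymphocytes were sparse, in cells from which the study had already removed clusters that lacked Cd3g, Cd3d, or Cd3e. Ncr1, a receptor that defines NK cells, had a UMI in 1 of 188 and 0 of 131 γδ-like cells, the latter allowing a share of cells with a UMI of up to 2.29%. Klra8 was at 0 in both libraries. Klrb1c was found in 14 and 3 γδ-like cells and in 0 of 169 and 0 of 147 strict CD8 cells. Klra4 had 23 UMIs in γδ-like cells and 0 in strict CD8 cells, at least 7.35-fold more. Of the 7 NK cell markers, 6 and 4 had a UMI, and their summed level was 72.1 and 67.4 CPM in γδ-like cells against 28.6 and 43.0 in strict CD8 cells, mostly from Eomes and Fcer1g, which T cells also express. Of the 4 with enough UMIs for the fit, Fcer1g and Tyrobp lay higher. They had 287 and 75 UMIs against 19 and 2 in strict CD8 cells, and are described without a test. The 6 B cell markers summed to 28.5 and 36.5 CPM against 72.2 and 87.9, with Ighm at 17.1 and 28.9 CPM against 63.7 and 77.7 (adjusted p 0.000656). The 5 myeloid markers summed to 118 and 111 CPM against 175 and 143, nearly all from Cst3, the only member tested (lower, adjusted p 0.016, not called without either SDHA-KO library), with Lyz2 and C1qa at 0. The 2 erythroid markers summed to 0.137 and 0.219 CPM against 0.321 and 0, and the CD4 T cell genes Cd40lg and Foxp3 to 2.06 and 2.19 CPM against 0 and 0.775, none of which could be tested. The part of these other cells in the results was not tested.

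γδ-like cells made up 36.8% (exact 95% interval 32.6 to 41.1) and 33.1% (28.5 to 38.0) of the CD8 class in the stimulated SDHA-KO libraries, a mean of 34.9% ± 2.62 (SD, n = 2). In stimulated WT libraries the share was 2.01% and 2.04%, in unstimulated SDHA-KO libraries 8.62% and 8.45%, and in unstimulated WT libraries 1.30% and 1.08%. The stimulated SDHA-KO libraries were thus apart from the other 6, and unstimulated SDHA-KO libraries lay above both WT groups. Since this group was chosen with its share known, no test is given, and an exact permutation test of 2 against 2 libraries could not give a two-sided p below 0.33. Thinning each cell to 5000 UMIs, with the rule applied afterwards, left 30.1%. Of all cells of a library, γδ-like cells were 11.4% and 7.80% in stimulated SDHA-KO, 0.998% and 0.944% in stimulated WT, 1.94% and 1.80% in unstimulated SDHA-KO, and 0.430% and 0.398% in unstimulated WT.

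**Figure D1:**
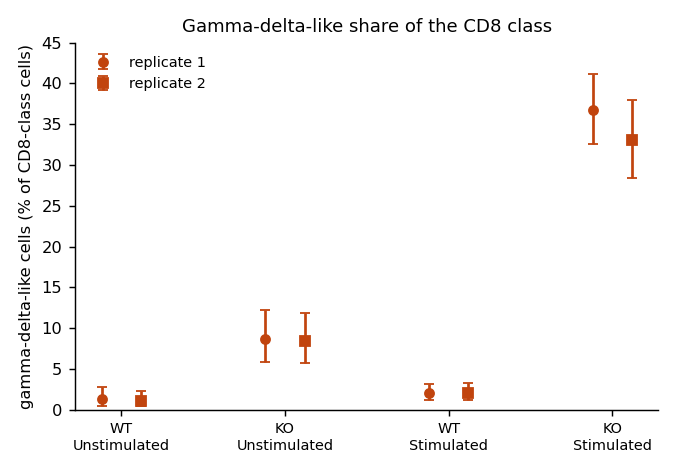
Share of CD8-class cells that met the γδ-like rule (vertical axis, percent) in each library of the 4 groups; circles are replicate 1, squares replicate 2, and bars exact 95% binomial intervals of counting error. The 2 stimulated SDHA-KO libraries sit at 36.8% and 33.1%, and no other library is above 8.62%.

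The γδ-like cells ranged from cells with few UMIs, many of them mitochondrial, to cells with many UMIs and a low mitochondrial share. Cells under 10% mitochondrial UMIs were 53.2% and 45% of γδ-like cells and 86.4% and 76.9% of strict CD8 cells. The median mitochondrial share was 8.42% and 14% in γδ-like cells and 2.07% and 2.27% in strict CD8 cells, so the classes compared below differed in it. In stimulated WT libraries the medians were 16.7% and 19.3% in γδ-like cells and 18.7% and 16.8% in strict CD8 cells.

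**Figure D2:**
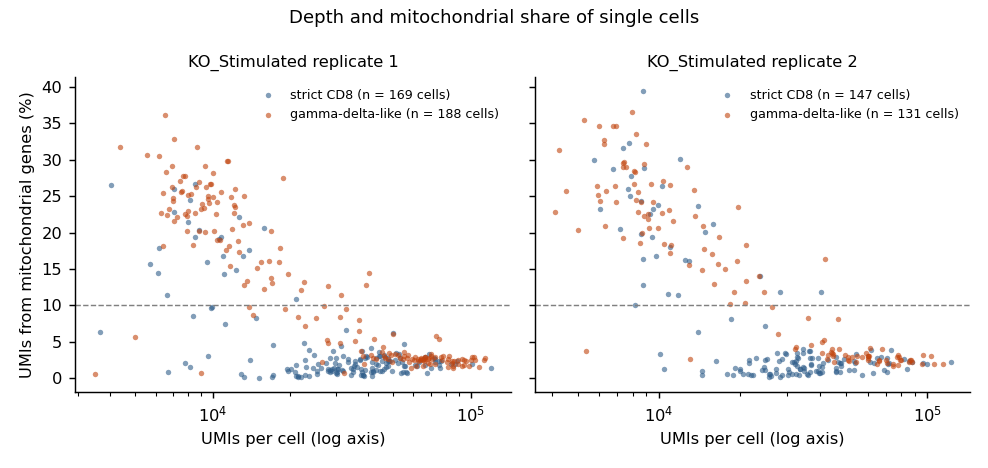
UMIs per cell (horizontal log axis) against the percentage of UMIs from mitochondrial genes (vertical axis) for each γδ-like and strict CD8 cell of the 2 stimulated SDHA-KO libraries; the dashed line marks 10%. Of γδ-like cells 53.2% and 45% lie below the line, against 86.4% and 76.9% of strict CD8 cells.

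The study's own subset names divided the γδ-like cells in the same way. Central memory (Tcm) subsets held 54.3% and 59.5% of γδ-like cells and 24.3% and 27.9% of strict CD8 cells, and effector memory (Tem) subsets held the rest. Tcm4 alone held 29.3% and 30.5% of γδ-like cells against 4.73% and 9.52% of strict CD8 cells, and its γδ-like cells had a median mitochondrial share of 24.4% and 25.6%. Those names came from a clustering of the study on the same counts, so the shares are a description. In plain CPM, Gzmc in γδ-like cells of Tem1 was at 745 and 1010, in those of Tcm4 at 1030 and 146, and in those of Tem2 at 28.6 and 16.2.

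Sdha (chr13:74322254-74350280, minus strand), the gene that the Cre line targets, was higher in γδ-like than in strict CD8 cells of SDHA-KO mice. It was at 71.3 and 72.0 CPM in γδ-like cells and at 31.9 and 29.2 CPM in strict CD8 cells of the same libraries. In stimulated WT libraries it was at 73.8 and 69.9 CPM in γδ-like cells and at 81.2 and 79.4 in strict CD8 cells. In unstimulated SDHA-KO libraries it was at 53.3 and 56.0 CPM in γδ-like cells, from 15 and 19 UMIs, and at 34.8 and 36.8 in strict CD8 cells. The γδ-like libraries were above both strict CD8 libraries of the same state in SDHA-KO and below them in stimulated WT.

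**Figure D3:**
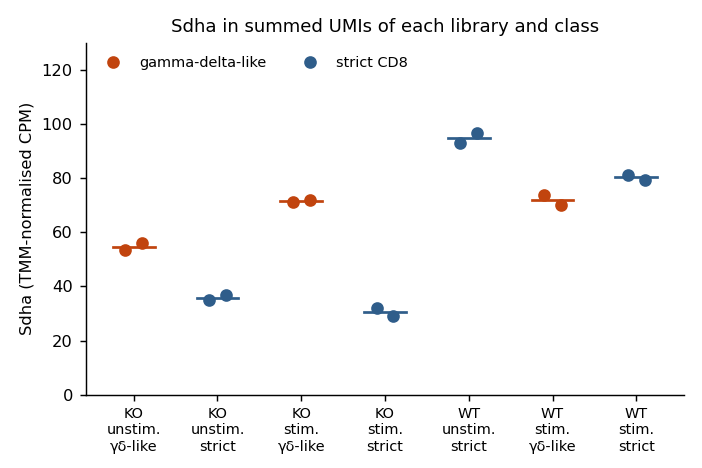
Sdha level (vertical axis, TMM-normalised CPM from 0) in the summed UMIs of γδ-like and strict CD8 cells, 1 point per library and a line at the mean of 2; unstimulated WT γδ-like cells were too few to sum. In stimulated SDHA-KO libraries γδ-like cells sit at 71.3 and 72.0 and strict CD8 cells at 31.9 and 29.2.

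Within the stimulated SDHA-KO libraries Sdha was higher in γδ-like than in strict CD8 cells by 1.17 on the log2 scale (SE 0.115, adjusted p 0.000451). This contrast was larger than the one in WT by 1.28 (SE 0.189, adjusted p 0.0230). Strict CD8 cells of SDHA-KO lay below those of WT, with a log2 fold change of -1.39 (adjusted p 3.12e-08). Between SDHA-KO and WT γδ-like cells the log2 fold change was -0.0043 (SE 0.142, adjusted p 0.997), an estimate that rests on 47 and 40 Sdha UMIs in WT, and a p above the threshold does not show that the levels are equal. Against WT strict CD8 cells it was -0.17 (SE 0.0873, adjusted p 0.140).

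The Sdha levels depended on the mitochondrial share. Under 10% mitochondrial UMIs, Sdha was at 64.8 and 66.2 plain CPM in γδ-like cells and at 30.3 and 26.3 in strict CD8 cells. At 10% or more it was at 127 and 120 CPM in γδ-like cells and at 111 and 81.7 in strict CD8 cells, where it rests on 25 and 32 UMIs from 23 and 34 cells, and the log2 fold change of 0.39 did not pass the test (adjusted p 0.765). SDHA-KO cells of the CD8 class with Trdc UMIs and at least 2 Cd8 UMIs, which are in neither class, had Sdha at 69.6 and 66.2 CPM.

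Other complex II genes did not rise with Sdha. Sdhb, the iron-sulphur subunit, was at 147 and 136 CPM in γδ-like cells against 160 and 154 (adjusted p 0.215), and Sdhd, a membrane anchor, at 140 and 152 against 115 and 120 (adjusted p 0.189). Of 7 other genes for complex II subunits and assembly factors, 0 were higher and 2 were lower, the anchor Sdhc (49.7 and 42.9 CPM against 63.5 and 64.7, adjusted p 0.0216) and the assembly factor Sdhaf1 (42.0 and 47.0 against 74.4 and 76.1, adjusted p 0.0135). The Sdhaf1 call was lost without either SDHA-KO library.

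Across all genes, 806 were higher and 1040 lower in γδ-like than in strict CD8 cells of the stimulated SDHA-KO libraries, and the median log2 fold change over all genes was -0.008. Of the granule genes, 5 of 13 tested were higher and 5 were lower, with a median of -0.18. Over all genes tested, 6.75% were higher and 8.71% lower. The 5 higher genes include Gzmc, which was picked from earlier results of these data, so that count is a description. The sign of the median was not stable, at -0.192 without replicate 1, 0.22 without replicate 2, and 0.30 after thinning, where 6 of 12 were higher and 4 lower. Without either SDHA-KO library the contrast rests on 1 pair of SDHA-KO sums, and far fewer of all genes were called. A call lost in such a fit, in any paragraph, therefore does not show that the difference of that gene was unstable. Gzmb, the main granzyme of killer T cells, was at 8480 and 8460 CPM in γδ-like cells and at 4390 and 4350 in strict CD8 cells, with no overlap (log2 fold change 0.90, SE 0.133, adjusted p 0.00318). Prf1, the pore protein perforin, was at 215 and 174 CPM against 103 and 111 (adjusted p 0.018), and Fasl, a death ligand, at 32.5 and 33.5 against 13.8 and 13.0 (adjusted p 0.00215). The granule membrane protein Nkg7 went the other way, at 659 and 744 CPM against 1190 and 1310 (adjusted p 0.0179), as did Gzmf, at 2.61 and 1.09 against 9.15 and 9.88 (adjusted p 0.0187, not called without either SDHA-KO library).

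The granzymes differed in how they were spread over cells. The 19 and 13 γδ-like cells with most UMIs of the gene held 29.3% and 29.0% of the Gzmb UMIs but 91.1% and 97.2% of the Gzmc UMIs and 82.7% and 96.7% of the Gzma UMIs. Gzma was at 756 and 255 CPM against 125 and 23.6 (log2 fold change 2.88, adjusted p 0.020), and the call was lost without replicate 1. A Gzmc UMI was found in 38.8% and 26.0% of γδ-like cells, against 8.28% and 3.40% of strict CD8 cells and 6.33% and 3.43% of CD4-class cells. Thinned to 5000 UMIs the γδ-like shares were 24.2% and 13.3%. The closely related Gzmd and Gzme, at 9.46 and 14.5 CPM in replicate 1 and at 0 and 0.219 in replicate 2, could not be tested, and 3′ reads of such near copies may be split among them.

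**Figure D4:**
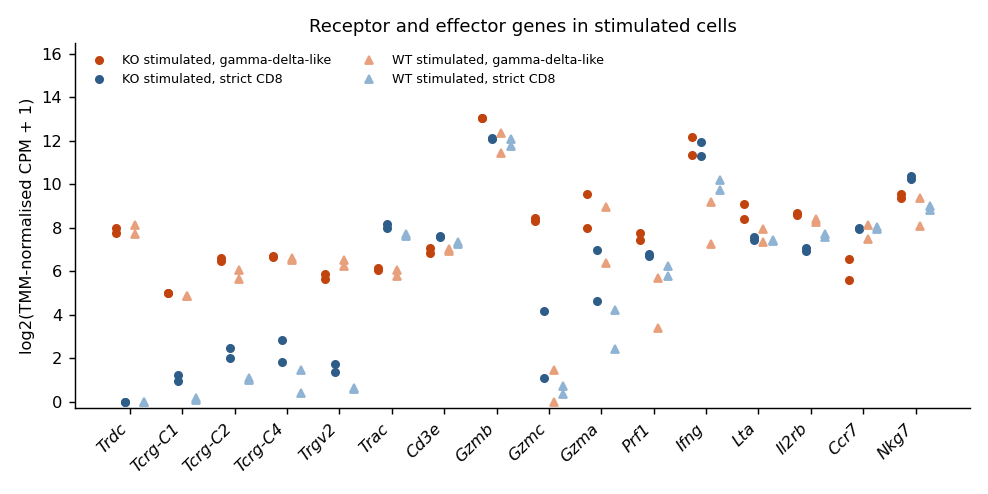
Level of 16 receptor and effector genes (vertical axis, log2 of TMM-normalised CPM + 1) in summed γδ-like and strict CD8 cells of stimulated SDHA-KO (circles) and WT (triangles) libraries, 1 symbol per library. The γ constant genes separate the classes in both genotypes, and Gzmc is at 353 and 314 CPM in γδ-like cells of SDHA-KO and at 0 and 1.75 CPM in the 34 γδ-like cells of WT.

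Type 1 genes were partly higher. Of 14 tested, 5 were higher and 1 was lower (median 0.304), beside 6.75% higher and 8.71% lower over all genes. The list median was -0.0326 without replicate 1 and 0.74 without replicate 2, so its sign was not stable. Ifng, which encodes interferon-γ, was at 4560 and 2630 CPM in γδ-like cells and at 3910 and 2510 in strict CD8 cells, overlapping (log2 fold change 0.09, adjusted p 0.836), with 71.7% and 72.0% of its UMIs in the 19 and 13 γδ-like cells with most of them. Il2rb, the β chain of the IL-2 and IL-15 receptors, was at 413 and 380 CPM against 135 and 121 (log2 fold change 1.58, SE 0.101, adjusted p 0.0001). Lta, lymphotoxin, was at 336 and 544 CPM against 170 and 189 (adjusted p 0.0019), and the transcription factor Tbx21 at 57.9 and 52.5 against 31.6 and 33.9 (adjusted p 0.0161). Cd27, a costimulatory receptor, was the lower gene, at 47.0 and 61.5 CPM against 64.2 and 78.8 (adjusted p 0.0418), and lost its call without either SDHA-KO library and without the library block.

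Some NK-type receptors and some regulators of innate-like T cells differed as well. Of 23 NK receptor genes 15 had enough UMIs for the test, some only through the γδ-like sums. Genes of that kind could hardly be called lower, so no count of calls is given for this list. Klrk1, the activating receptor NKG2D, was at 99.9 and 127 CPM against 43.6 and 70.7 (adjusted p 0.0332), and Klrc1, a chain of NKG2 receptors, at 33.3 and 31.1 against 13.5 and 12.6 (adjusted p 0.00594). Klra5, a Ly49 receptor, had 49 UMIs in γδ-like cells and 0 in strict CD8 cells, at least 15.7-fold more, and is described without a test. Neither Klrk1 nor Klrc1 was called without replicate 1.

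Of 19 transcription factors of γδ and innate-like cells, 3 were higher and 5 lower, beside 6.75% higher and 8.71% lower over all genes. Id2, which blocks E proteins, was at 168 and 87.5 CPM against 45.4 and 24.6 (log2 fold change 1.81, adjusted p 0.000244), while its relative Id3 was at 13.2 and 17.5 against 40.6 and 49.4 (-1.61, adjusted p 0.000324). Zbtb16 (PLZF), the factor of NKT and some γδ cells, was at 0.960 and 2.41 CPM against 0 and 0 and did not pass the test (adjusted p 0.0625). Of 16 genes of IL-17-type γδ cells 7 had enough UMIs for the test, several only through the γδ-like sums, so they are described without a test. Ltb4r1, a leukotriene receptor, was at 9.74 and 3.06 CPM against 0.321 and 0.194, with 85 UMIs against 3. Il17a was found in 9 and 1 γδ-like cells and in 9 and 2 strict CD8 cells. Il22, a cytokine of the same type, was at 3.43 CPM in replicate 1 and 52.9 in replicate 2 against 1.44 and 0.387.

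Other cytokines went both ways. Some of the 11 tested had enough UMIs only through the γδ-like sums, so no count of calls is given for this list. Il10, an inhibitory cytokine, was at 38.4 and 12.9 CPM in γδ-like cells against 0.963 and 0.581, from 339 UMIs against 9. The strict CD8 sums had too few Il10 UMIs for the fit on their own, so Il10 is described without a test. Tnfsf8, the CD30 ligand, was at 41.8 and 49.2 CPM against 193 and 210 (-2.21, adjusted p 6.49e-05). Ccl5, a chemokine stored by memory and killer cells, was the 1 gene called of 6 chemokines, at 96.8 and 85.5 CPM against 31.6 and 28.5 (adjusted p 0.000951).

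Homing receptors went both ways, and costimulatory and inhibitory receptors were more often lower than higher. Over all genes tested, 6.75% were higher and 8.71% lower in this comparison. Of 16 homing receptors, 2 were higher and 3 lower. Ccr7, which guides cells to lymph nodes, was at 48.0 and 94.5 CPM against 243 and 253 (-1.93, adjusted p 0.000751). Of 18 costimulatory and inhibitory receptors, 9 were lower and 2 higher, with 3 and 1 without replicate 1 and 8 and 2 without replicate 2. Cd28, one of the receptors that the culture antibodies bind, was at 65.3 and 76.4 CPM against 175 and 196 (-1.44, adjusted p 0.000715), and Btla, an inhibitory receptor, at 11.8 and 14.7 against 45.7 and 46.1 (-1.87, adjusted p 0.000248). The higher pair was Havcr2 (TIM-3), at 37.0 and 40.7 CPM against 8.50 and 8.52, and Entpd1 (CD39), at 8.09 and 4.59 against 0.802 and 0.775. Entpd1 had 80 UMIs against 9, too few in strict CD8 sums for the fit on their own, and is a description. Of the 11 genes of the IL-2 receptor family and STAT5, Il2rb was the 1 higher gene and 2 were lower, with Il21r, the IL-21 receptor, at 60.2 and 66.3 CPM against 128 and 117 (adjusted p 0.00082, not called without replicate 1).

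Where a call averaged 20 CPM or more and the libraries of the 2 classes did not overlap, the largest rises outside the receptor genes and granzymes were in Ctla2a, Serpina3g, Spp1, Gpat3, and Hist1h1a. Ctla2a, an inhibitor of cathepsin-like proteases, was at 281 and 215 CPM against 36.3 and 36.0 (log2 fold change 2.72). Serpina3g, a serpin of activated T cells, was at 32.9 and 49.4 against 4.17 and 9.49. Spp1 (osteopontin) and Gpat3, an enzyme of glycerolipid synthesis, rose by 2.55 and 2.25 on the log2 scale, and the linker histone Hist1h1a by 2.19. All 5 had adjusted p of 0.00201 or less.

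By the same limits the largest falls were in Spry1, Psrc1, Dapl1, Mgmt, Phlda3, Tnip3, Gm47662, Ldhb, Crabp2, and Ntrk3, with log2 fold changes from -3.82 to -2.57. Spry1, an inhibitor of growth factor and receptor signalling, was at 2.74 and 3.28 CPM in γδ-like cells and at 39.6 and 42.0 in strict CD8 cells. Phlda3 and Psrc1, both known targets of p53, were at 12.3 and 10.9 against 87.0 and 91.4, and at 5.62 and 7.22 against 63.5 and 55.8. Mgmt, a DNA repair enzyme, was at 3.84 and 12.5 CPM against 51.3 and 73.4, and Ldhb, a lactate dehydrogenase subunit, at 6.31 and 6.56 against 36.4 and 39.9. Both classes were also set against WT for 3 of these genes, chosen after their values were seen. In stimulated WT strict CD8 cells Phlda3 was at 7.84 and 7.31 CPM, Psrc1 at 4.87 and 6.53, and Ldhb at 8.67 and 8.82. These 3 genes were taken from the largest falls against strict CD8 cells of SDHA-KO. That γδ-like cells lay nearer to the WT levels follows in part from this choice and is a description. WT levels of the other falls are not given.

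Respiratory chain genes moved in opposite directions by their place of coding. Of 13 mitochondrially encoded genes, 12 were higher in γδ-like cells (median log2 fold change 1.00) and 0 lower. mt-Nd3, a complex I subunit, was at 1030 and 1110 CPM against 327 and 418 (1.49, adjusted p 0.00108). Of 69 nuclear respiratory chain genes, 0 were higher and 26 lower (median -0.30), with the complex I subunit Ndufb2 at 117 and 126 CPM against 215 and 238 (-0.95, adjusted p 0.000571). The share of cells above 10% mitochondrial UMIs, given earlier, differs between the classes in the same direction as the first list. Among cells under 10%, where 28.3% of all genes were called, 10 of the 13 were higher and 26 of the 69 lower. At 10% or more 0 and 1 were called, where 1.2% of all genes were. Without replicate 1, 6 of the 13 were higher and 1 of the 69 lower, and without replicate 2, 9 and 3, where 1.8% and 3.74% of all genes were called.

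Over all genes tested, 6.75% were higher and 8.71% lower, and the TCA cycle and integrated stress response counts below lay near or below these shares. Of 17 TCA cycle genes 0 were higher and 2 lower, Idh3g and Idh2. Idh2 was at 23.3 and 17.3 CPM against 38.5 and 35.6 (adjusted p 0.00716, not called without either SDHA-KO library). Of 20 glycolysis genes 4 were higher and 1, Ldhb, lower, and the lactate exporter Slc16a3 was at 100 and 49.7 CPM against 59.0 and 25.8 (0.78, adjusted p 0.00355, not called without either SDHA-KO library). Among cells under 10% mitochondrial UMIs 13 of the 20 were higher and 1 lower, after thinning 4 and 3 of 19 with a median of -0.14, and without either SDHA-KO library 0 and 1. Hypoxia-inducible factor (HIF) targets were split, with 3 of 22 higher and 4 lower, among them the metallothionein Mt1 at 376 and 273 CPM against 155 and 69.3 and Ndrg1, a stress-response gene, at 3.70 and 3.06 against 15.9 and 11.6. Of 20 integrated stress response genes 1 was higher, the amino acid transporter Slc7a5 (122 and 140 CPM against 69.6 and 66.1), and 1 lower, the proline enzyme Pycr1, and both calls were lost without either SDHA-KO library.

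Genes of division and sterol synthesis were higher. Of 26 S phase genes 14 rose and 0 fell, with Rrm2, a subunit of ribonucleotide reductase, at 235 and 207 CPM against 98.0 and 90.7 (1.17, adjusted p 0.0005). Of 26 G2/M genes 20 rose and 0 fell, with Ccnb1, the cyclin of mitotic entry, at 126 and 96.5 CPM against 51.7 and 53.3 (1.03, adjusted p 0.00157, not called without replicate 1). Of 21 sterol synthesis genes 13 rose and 0 fell, with Mvd, a mevalonate pathway enzyme, at 20.3 and 14.4 CPM against 9.15 and 7.75. Among cells under 10% mitochondrial UMIs, where 28.3% of all genes were called, 24 of the S phase and 23 of the G2/M genes were higher, and at 10% or more 0 and 0. Without replicate 1 the medians of the S phase, G2/M, and sterol lists were 0.456, 0.49, and 0.563, and without replicate 2 they were 0.455, 0.774, and 0.664. Fewer of these genes were called in such fits, so these list counts need both libraries. The Mvd call was lost without either.

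**Figure D5:**
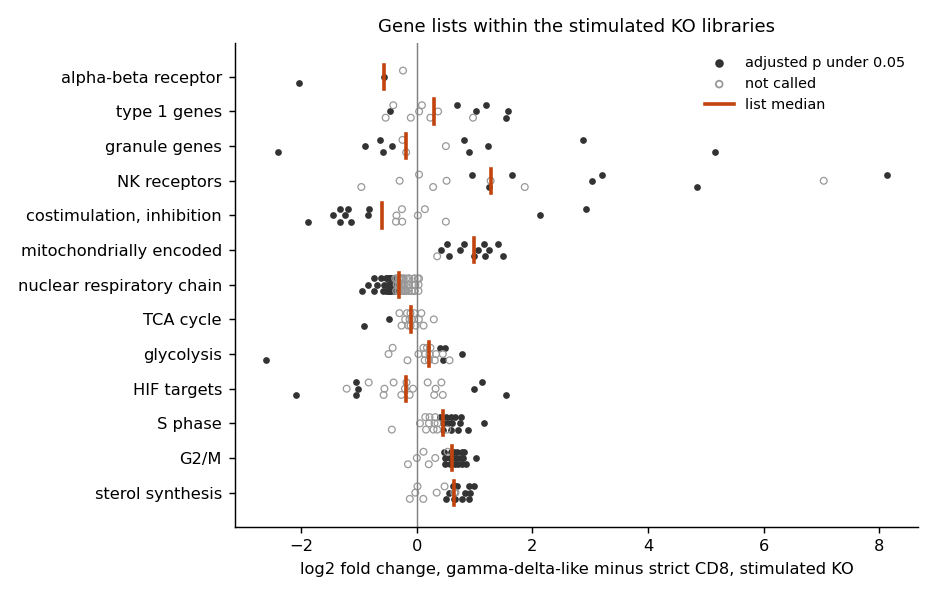
Log2 fold change of each tested gene (horizontal axis) in 13 gene lists, γδ-like minus strict CD8 cells of the stimulated SDHA-KO libraries; filled points have an adjusted p under 0.05 in edgeR and the coloured bar is the list median. Mitochondrially encoded, S phase, G2/M, and sterol genes lie to the right of 0 (medians 1.00, 0.46, 0.61, and 0.65) and nuclear respiratory chain genes to the left (median -0.30).

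The contrast between the classes differed between the genotypes for 185 genes, 83 with a more positive contrast in SDHA-KO (0.695%) and 102 with a more negative one (0.854%). With no composition normalisation the split was 159 and 124. Mitochondrially encoded genes were the largest block, with 12 of 13 more positive in SDHA-KO (median 1.5), whereas 7 of 69 nuclear respiratory chain genes were more negative. Of the receptor genes 1 of 5 was called, Trgv2. Its strict CD8 level was 0.487 and 0.536 CPM in WT and 1.60 and 2.32 in SDHA-KO, while its γδ-like level was higher in WT, at 89.5 and 75.1. None of 13 granule genes was called, with 2111 genes at an unadjusted p under 0.05 in this comparison, and for Gzmb the log2 difference of contrasts was 0.88 (adjusted p 0.0591). The limits of 34 WT γδ-like cells apply to each of these values.

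The same rule in stimulated WT libraries allowed γδ-like cells to be compared between genotypes. The fits of this and the following comparisons share the γδ-like sums of stimulated SDHA-KO. Of 12088 genes, 1108 were higher (9.17%) and 499 lower (4.13%) in SDHA-KO, and the median log2 fold change over all genes was 0.13. The split depended on the scaling, since RLE factors gave 672 higher and 626 lower and no composition normalisation 765 and 586, so lists are read against that median. Of 7 receptor genes 1 was higher (Tcrg-C2, not called with RLE factors) and 1 lower (Trgv2). Tcrg-C4 was at 103 and 101 CPM in SDHA-KO and at 97.3 and 90.8 in WT (log2 fold change 0.11, SE 0.302, adjusted p 0.859), and Trdc, which the rule used, at 214 and 256 against 210 and 276.

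Granule genes and some cytokine genes were higher in SDHA-KO than in WT γδ-like cells. Of 13 granule genes 7 were higher and 0 lower (median 1.08). Gzmb was at 8480 and 8460 CPM against 2740 and 5280 (1.08, SE 0.193, adjusted p 0.00155), and Prf1 at 215 and 174 against 9.42 and 50.6 (2.75, adjusted p 0.0001). Gzmc had 2571 and 1434 UMIs in SDHA-KO γδ-like cells and 0 and 1 in those of WT. These sums held 7049079 and 4311824 UMIs in SDHA-KO and 583183 and 508194 in WT. In SDHA-KO 91.1% and 97.2% of the Gzmc UMIs lay in 19 and 13 cells, and the WT sums held only 17 and 17 cells. Of 14 type 1 genes 4 were higher and 0 lower, with Ifng at 4560 and 2630 CPM against 151 and 576 (3.33, adjusted p 7.2e-05). The growth factor gene Csf2, counted among the 4, was at 88.2 and 84.9 CPM against 1.57 and 1.75. The small WT sums held hardly any Csf2 UMIs, so it is described without a test. In each of these genes the SDHA-KO libraries lay above both WT libraries. No count of calls is given for other cytokines and NK receptors, since some of them had enough UMIs only through γδ-like sums. Among the NK receptors Klrd1 (CD94) was higher, at 98.5 and 131 CPM against 50.2 and 47.2.

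HIF targets and glycolysis genes were lower. Of 22 HIF targets 20 were lower and 0 higher in SDHA-KO γδ-like cells (median -1.95). Selenbp1 was at 0.823 and 0.656 CPM against 56.5 and 33.2 in WT, and Gbe1, the glycogen branching enzyme, at 18.1 and 14 against 253 and 119. Ndrg1 was at 3.70 and 3.06 CPM against 47.1 and 48.9 (-3.79, adjusted p 6.06e-06). Of 20 glycolysis genes 11 were lower and 0 higher (median -0.53), with the glucose transporter Slc2a3 at 70.1 and 59.3 against 179 and 189 (-1.49, adjusted p 0.000174), while Ldha, the other lactate dehydrogenase subunit, was at 1700 and 1410 against 1710 and 1620 (-0.10, adjusted p 0.627). In strict CD8 cells, where 23.2% of all genes were higher and 18.8% lower in SDHA-KO, 22 of 22 HIF targets were lower (median -1.42), 15 of 20 glycolysis genes lower and 2 higher, and 9 of 13 granule genes higher. Between the γδ-like and strict CD8 classes the HIF contrast differed by genotype for 5 of 22 targets, 2 more positive and 3 more negative in SDHA-KO. Of 21 sterol genes 9 were lower and 1 higher, of 20 integrated stress response genes 7 were lower and 0 higher, and of 13 mitochondrially encoded genes 2 were lower in the γδ-like comparison.

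Cycle genes were in part higher, and single receptor and survival genes were lower. Of 26 G2/M genes 9 were higher and 0 lower, and of 26 S phase genes 6 were higher and 0 lower, while with RLE factors the higher counts were 8 and 1. Of 19 homing receptors 1 was higher and 3 lower, and of 18 costimulatory and inhibitory receptors 3 were higher and 3 lower. Ccr7 was at 48.0 and 94.5 CPM in SDHA-KO against 179 and 276 in WT (-1.70, adjusted p 0.000448). Ctla4, an inhibitory receptor, was at 71.0 and 104 CPM against 259 and 309 (-1.71, adjusted p 0.00102), and Bcl2, a survival factor, at 331 and 294 against 637 and 519 (-0.89, adjusted p 0.00087). Leaving out WT replicate 2 reduced the number of genes called from 1607 to 844, and WT replicate 1 to 947.

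Against WT strict CD8 cells, a comparison in which genotype and class change together, 2941 genes were higher (24.3%) and 2251 lower (18.6%). Granule genes were higher in 10 of 13 cases and lower in 0. No count of calls is given for NK receptors, some of which had enough UMIs only through γδ-like sums. HIF targets were lower in 19 of 22 and higher in 0, and sterol genes were lower in 16 of 21. Trac was lower, with a log2 fold change of -1.55 (adjusted p 4.53e-08).

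Stimulation changed the γδ-like cells of SDHA-KO widely, with 2866 genes higher (23.7%) and 1867 lower (15.4%) than in their unstimulated counterparts, and a median log2 fold change over all genes of 0.29. DESeq2, which uses other size factors, put 47.8% of its calls on the higher side, against 60.6% in edgeR. Receptor genes fell, 7 of 7 tested. Tcrg-C1 was at 117 and 67.8 CPM unstimulated and at 31.3 and 30.6 stimulated, and Cd3e at 366 and 404 against 112 and 135 (-1.65, adjusted p 2.45e-08). Trdc, described only, was at 1070 and 1080 CPM against 214 and 256.

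Effector genes moved in both directions on stimulation. Ccl5 was at 8370 and 5370 CPM unstimulated and at 96.8 and 85.5 stimulated (-6.23, SE 0.225, adjusted p 2.64e-12). Gzmb was at 3.56 and 0 CPM unstimulated and at 8480 and 8460 stimulated, and Gzmc at 0 and 0 against 353 and 314. Ifng was at 28.5 and 17.7 CPM against 4560 and 2630 (7.31, adjusted p 1.19e-07). Of 13 granule genes 7 rose and 2 fell, and of 14 type 1 genes 6 rose and 5 fell.

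Homing receptors mostly fell, and genes of the cell cycle, glycolysis, sterol synthesis, and the respiratory chain mostly rose. Of 19 homing receptors 11 fell and 1 rose, with S1pr1, the receptor for exit from lymphoid tissue, at 249 and 206 CPM unstimulated and at 5.49 and 2.19 stimulated (-5.75, adjusted p 2.5e-10). Of 16 NK receptors 5 fell and 0 rose, with Klrd1 at 366 and 336 CPM against 98.5 and 131. Tcf7, a factor of resting T cells, was at 256 and 268 CPM against 36.8 and 33.0. All 26 S phase and all 26 G2/M genes rose, as did 15 of 20 glycolysis genes, 17 of 21 sterol genes, 49 of 69 nuclear respiratory chain genes, and 11 of 13 mitochondrially encoded genes (7 of 13 with RLE factors). For Sdha the log2 fold change was 0.39 (SE 0.195, adjusted p 0.202), so the stimulated level of 71.3 and 72.0 CPM was not separated from the unstimulated 53.3 and 56.0 by the test at this depth.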

How the data were processed

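Splenic T cells of 8 libraries were profiled by 10x Genomics 3′ sequencing. The authors deposited whole-number UMI counts per gene and cell for 20170 genes and 12846 cells, with a cell table that holds the library, the class (CD4 or CD8), the subset, the percent of mitochondrial UMIs, and a log10 ratio that was not used here. The submitters' processing notes name Cell Ranger and bcl2fastq, with versions not given, and the mm10 build. The study kept cells under 6000 features unstimulated and 8000 stimulated, and a doublet caller was not run here. Libraries were named by genotype and stimulation from the labels, and cells were mapped to them by the library names in the cell table.

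The members and gene lists were chosen with earlier results of these data known. UMIs were summed per library and class (sums of at least 10 cells) and tested with edgeR 4.0.16 in R 4.3.3 (quasi-likelihood test, TMM factors, filterByExpr with a minimum count of 10, Benjamini-Hochberg adjusted p under 0.05). Contrasts of γδ-like with strict CD8 cells in stimulated libraries used 8 sums with the library as a block, since both sums come from 1 library, and left 2 residual degrees of freedom. The others used group means over 14 sums without a library block. Both sums of a library entered these fits, so their 7 residual degrees of freedom are not all independent. The 4 genes of the rule (Trdc, Cd8a, Cd8b1, and Cd4) stayed out of the tests, and levels by mitochondrial share, subset, or rule limit are plain CPM, other levels TMM-normalised. The fit was tested on simulated data. Named genes were the rule genes and given markers, Sdha, the 10 largest rises and 10 largest falls among called genes of at least 20 CPM that did not overlap, the largest rise and fall of each list, receptor chain genes, and defining markers of other cells. Other genes, such as Ifng, Gzmb, Prf1, Fasl, Lta, Csf2, Tbx21, Klrk1, Klrc1, Cd28, Havcr2, Il22, Bcl2, Ctla4, S1pr1, and the genes named in the comparisons with WT and unstimulated cells, were chosen after their values were seen. Alternatives were DESeq2 1.42.0, limma 3.58.1 on mean log values, other scalings, filters, cell rules, thinning, and leaving out each library. A few genes are not reported here.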

Additional observations from a re-analysis of the deposited data

Results flagged for a closer look

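Among 65 named genes that could be tested, the γδ-like minus strict CD8 contrast differed between stimulated SDHA-KO and stimulated WT libraries for 17 genes by the interaction term of edgeR (adjusted p under 0.05). Of all 11943 genes tested, 0.695% had a more positive contrast in SDHA-KO and 0.854% a more negative one. Many of the 65 were named for a large rise or fall in SDHA-KO, which is part of this difference. That choice favours calls, so the 17 are a description. The difference of log2 fold changes, SDHA-KO minus WT, was 1.28 for Sdha, 1.69 for Ctla2a, 1.96 for Hist1h1a, 0.84 for Il2rb, 1.57 for mt-Nd3, 0.87 for Slc16a3, and 1.60 for Mt1. It was -2.60 for Trgv2, -3.58 for Psrc1, -4.23 for Mgmt, -3.62 for Tnip3, -2.96 for Ldhb, -1.68 for Tnfsf8, -1.80 for Ccr7, -1.03 for Ndufb2, -2.28 for Ndrg1, and -1.91 for Ighm. The WT side of each rests on 34 γδ-like cells, and the median mitochondrial share differed between the classes in SDHA-KO (8.42% and 14% against 2.07% and 2.27%) more than in WT (16.7% and 19.3% against 18.7% and 16.8%). Its part in these differences was not tested.

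Cells with a Trdc UMI and no Cd8 or Cd4 UMI were also found in the CD4 class, whose cells entered no fit. They were 2.02% (23 of 1137 cells, exact 95% interval 1.29 to 3.02) and 1.32% (17 of 1284) in stimulated SDHA-KO, against 0.349% (3 of 859, 0.0721 to 1.02) and 0.620% (6 of 967) in stimulated WT. The unstimulated shares were 0.986% and 0.532% in SDHA-KO and 1.07% and 0.736% in WT, and the intervals of stimulated SDHA-KO replicate 2 and stimulated WT replicate 2 (0.773 to 2.11 and 0.228 to 1.35) overlapped.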

How the results depend on the processing

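The number of genes called between γδ-like and strict CD8 cells of stimulated SDHA-KO, 1846, was 866 with DESeq2, 1041 with limma, 3219 in cells under 10% mitochondrial UMIs, 116 at 10% or more, 129 for a change of at least 2-fold, and 3030 from the SDHA-KO libraries alone. Leaving out 1 library gave 218 to 3323, with 218 without SDHA-KO replicate 1, 498 without SDHA-KO replicate 2, and 3283 and 3323 without WT replicates 1 and 2. The Sdha log2 fold change of 1.17 did not pass the test of a 2-fold change (1.17, adjusted p 0.627) or the test at 10% or more mitochondrial UMIs (0.391, adjusted p 0.765), and was 1.12 to 1.26 without single libraries. In the same contrast other genes turned direction. At 10% or more these were Cd27 (0.168), Ccl5 (-0.0554), Idh2 (0.995), Mt1 (-0.811), Cst3 (0.0802), and Eomes (-0.540); with thinning Cd27 (0.0656), Cd79b (1.22), and Eomes (-0.347); with limma Cd79b (0.00679) and Eomes (-0.0142). Without SDHA-KO replicates 1 and 2 in turn, Eomes was at -0.131 and 0.237, Cd79b at -0.500 and 0.303, and Sox13 at 3.37 and -1.25.

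The difference of contrasts between genotypes, 185 genes, was 308 with DESeq2, 283 with no composition normalisation, 876 with no filter, 968 with limma, 311 with at least 2 Trdc UMIs, 460 after thinning, 0 for a 2-fold change (2111 genes had an unadjusted p under 0.05 in edgeR), and 31 to 803 without single libraries (31 without SDHA-KO replicate 1, 535 and 803 without WT replicates 1 and 2). Its Sdha value of 1.28 was not called after thinning (1.21, adjusted p 0.1), for a 2-fold change (1.28), or without SDHA-KO replicate 1 (1.41, adjusted p 0.121), in a range of 1.29 to 1.41 without single libraries. Gzmc turned to -0.106 with thinning.

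Against WT strict CD8 cells 5192 genes became 2142 with limma, 2841 after thinning, 349 for a 2-fold change, and 3799 to 5238 without single libraries. Sdha there was called with DESeq2 (-0.219), under 10% mitochondrial UMIs (-0.303), and without either unstimulated SDHA-KO library (range -0.242 to -0.146), and turned with limma (0.00409). Between genotypes 1607 genes became 2476 with limma, 314 after thinning, 53 for a 2-fold change, 329 from the 2 groups alone, and 844 to 1293 without single libraries. Sdha, near 0, turned with no filter (0.00669), limma (0.0930), at least 2 Trdc UMIs (0.0530), 0 Cd4 UMIs (0.0371), thinning (0.210), and without SDHA-KO replicate 1 (0.0119) or WT replicate 1 (0.0411), from -0.0923 to 0.0411 without single libraries. Against unstimulated cells 4733 genes became 2796 after thinning, 2178 for a 2-fold change, and 2983 to 4793 without single libraries (2983 without unstimulated replicate 2), and Sdha passed with limma (0.336, adjusted p 9.82e-05). The SDHA-KO to WT difference in strict CD8 Sdha was -1.46 to -1.34. The share of 34.9% was 31.1% with at least 2 Trdc UMIs, 57.6% with any Cd8 UMIs, 31.6% with 0 Cd4 UMIs, 30.1% thinned, 26.7% under 10% mitochondrial UMIs, and 9.60% of all cells. The causes were not tested.

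Without the replicate block 2378 genes were called between the classes and 355 differed between genotypes. Deviations of γδ-like and strict CD8 sums of 1 library correlated at 0.19 in SDHA-KO and 0.031 in WT. Same-numbered libraries of different groups share only a number, and adding it as a replicate block gave 4989, 1529, and 4706 genes in the other 3 comparisons and changed no Sdha call. Fits in cells under 10% mitochondrial UMIs for the comparisons with WT γδ-like cells could not be made. Of 59 named calls 52 held with DESeq2, 44 with limma, 44 after thinning, 14 at 10% or more mitochondrial UMIs, 37 without SDHA-KO replicate 1, and 46 without replicate 2. The 59 include genes that are described above without a test. The WT γδ-like sums of about 17 cells and the 2 residual degrees of freedom limit what could be detected.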
